A study of Mus musculus with 2 samples.

Results

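Chd1 and 8 genes of the NuRD complex were followed in Klf5-overexpressing mouse embryonic stem (ES) cells of the E14 line, 2 clones in all. The 9 genes (Chd1, Chd4, Mbd3, Mta1, Mta2, Mta3, Gatad2a, Gatad2b and Rbbp4) were taken by gene symbol out of 18193 genes with a probe set of 1 symbol, and all 28 of their probe sets were read. E14 is an established line of mouse ES cells, which can renew themselves and give rise to all tissues of the embryo. Both samples carried the Klf5 overexpression, were undifferentiated per the labels, and grew in ES medium with 15% fetal bovine serum and LIF, the cytokine that sustains self-renewal. Total RNA of clone 2 and of clone 1 was hybridised to 1 Affymetrix array each. The sources used here do not name the vector or promoter that drives Klf5, or say how the clones were derived. The study's own comparison is with wild-type clones, not analysed here, so no value below is an effect of Klf5. What the arrays allow is the signal of each gene in both clones and the difference between them, as log2 signal of clone 2 minus that of clone 1, so that a value of 1 means 2-fold.

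Chd1 is a chromodomain ATPase that slides and spaces nucleosomes, recognises histone H3 methylated at lysine 4 and travels with RNA polymerase II. In mouse ES cells it is known to keep chromatin open and to be needed for self-renewal. NuRD joins nucleosome remodelling to histone deacetylation in 1 complex: Chd4 is the usual motor, Mbd3 or Mbd2 bridges its parts, the Mta proteins form the scaffold that holds the deacetylases Hdac1 and Hdac2, Gatad2a or Gatad2b links the motor to the rest, and Rbbp4 or Rbbp7 binds histones. In ES cells the Mbd3 form of NuRD is known to dampen pluripotency genes, Klf4 and Klf5 among them, and to be needed for cells to enter differentiation.

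The promoters of the genes are shown because Klf5, the overexpressed factor, binds CACCC-type and GC-rich elements. RefSeq promoters on GRCm38.p6 were found for 7 of the 9 genes, with 10 start sites in all, and the 250 bases upstream of each start were searched on both strands. Not matched in that table were Chd1 and Mta3. The letters GGGTGTG or GGGCGTG stood in 3 of these 10 windows and in 13.8% of all 32851 promoter windows. The GC box GGGCGG, which does not contain and is not contained in either of these, stood in all 10 windows and in 32.7% of all windows. GC content ran between 54% and 80.8% in the 10 windows, against a median of 52.4% over all windows. The 4 windows below hold all matches of GGGTGTG and GGGCGTG, in capitals, and Mta1, which had none. They are written 5′ to 3′ on the strand of the gene and end at the base before the start site, and a match describes letters, not binding.
Gatad2a, chr8:69974384-69974633, minus strand, with CACGCCC (the reverse complement of GGGCGTG) beginning 54 and 38 bases upstream: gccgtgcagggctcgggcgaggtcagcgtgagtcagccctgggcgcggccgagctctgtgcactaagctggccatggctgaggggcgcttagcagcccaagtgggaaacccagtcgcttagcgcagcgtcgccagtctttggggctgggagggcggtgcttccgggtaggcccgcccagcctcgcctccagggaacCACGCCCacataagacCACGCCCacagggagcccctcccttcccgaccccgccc
Chd4, first start site, chr6:125095731-125095980, plus strand, with GGGTGTG beginning 92 bases upstream: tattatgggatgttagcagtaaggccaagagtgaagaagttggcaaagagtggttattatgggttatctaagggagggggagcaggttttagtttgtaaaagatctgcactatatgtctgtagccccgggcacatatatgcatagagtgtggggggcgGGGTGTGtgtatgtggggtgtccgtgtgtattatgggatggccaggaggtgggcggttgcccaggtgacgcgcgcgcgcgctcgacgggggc
Chd4, second start site, chr6:125095913-125096162, plus strand, with GGGCGTG beginning 186 bases upstream: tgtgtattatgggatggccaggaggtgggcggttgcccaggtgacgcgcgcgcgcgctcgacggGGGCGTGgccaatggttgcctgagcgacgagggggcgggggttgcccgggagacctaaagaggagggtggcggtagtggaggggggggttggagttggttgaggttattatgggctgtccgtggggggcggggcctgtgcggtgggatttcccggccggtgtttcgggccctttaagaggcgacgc
Mta1, chr12:113098028-113098277, plus strand, no match and the highest GC content of the 10 windows: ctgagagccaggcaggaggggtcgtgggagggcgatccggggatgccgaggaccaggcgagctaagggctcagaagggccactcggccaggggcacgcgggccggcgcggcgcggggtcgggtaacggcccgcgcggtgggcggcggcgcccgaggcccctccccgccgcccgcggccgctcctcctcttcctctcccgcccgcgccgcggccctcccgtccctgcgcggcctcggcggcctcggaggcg

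The arrays carried ES cell RNA by their markers. All 8 ES cell markers examined were above background in both clones, with Nanog at 12.49 in clone 2 and 12.21 in clone 1. Of 8 fibroblast markers 2 passed in both clones (Thy1 and Pdgfrb), while the collagens Col1a1 (4.09 in clone 2 and 4.68 in clone 1) and Col3a1 (3.61 and 4.31) did not. Of 8 primitive endoderm markers Cubn passed in both clones and Sox17 in clone 2 alone. Klf5 itself read 12.25 in clone 2 against 11.61 in clone 1 on its brightest probe set. On the other above background it read 7.26 against 6.97, a log2 difference of 0.29. The background level was set from 51 genes typical of adult tissues, at the 95th percentile of their 75 probe sets, 6.30 in clone 2 and 6.73 in clone 1. Of these genes Mylpf was bright, at 10.48 in clone 2 and 10.53 in clone 1. Without it the levels were 6.18 and 6.645. With 1 array per clone no test of a difference was possible and no p-value was made, so a rule of size was used: a gene passed at 1.5-fold (or, where stated, 2-fold) if its brighter clone was above background. Over the 9584 genes above background in 1 clone or both the median difference was 0.09 and its SD 0.263. Where the deposited values were instead centred on the probe sets above background in both clones, that median moved by -0.12.

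Chd1 and all 8 NuRD genes gave signal above background in both clones. Each of the 9 genes had at least 1 probe set above background in clone 2 and in clone 1, against 47.4% of all genes. Of their 28 probe sets 21 passed in both clones, against 38.9% of all probe sets with 1 symbol. A further probe set, of Chd4, passed in clone 2 alone, and 6 did not pass in either clone: 2 of Gatad2b and 1 each of Mta1, Mta3, Gatad2a and Rbbp4. The mean signal of the brightest probe set of each gene lay between 8.13 and 12.83. Because probe sets differ in affinity, these signals give no order of abundance among the genes.

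**Figure D1:**
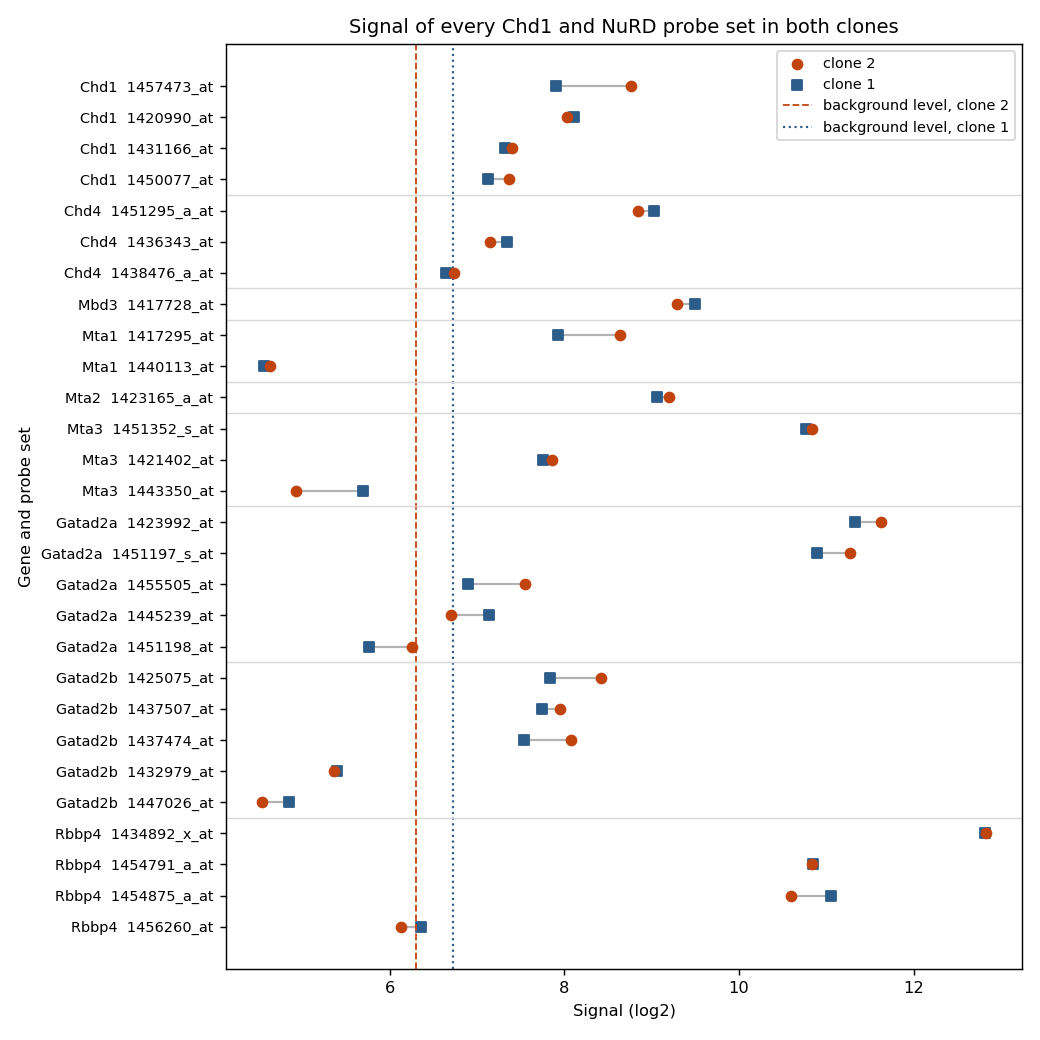
Log2 signal (x axis) of the 28 probe sets of Chd1 and the 8 NuRD genes (rows, grouped by gene), with circles for clone 2 and squares for clone 1, 1 array each; the vertical lines mark the background level of each array, 6.30 and 6.73. The widest gap among probe sets above background is that of Chd1 probe set 1457473_at, 8.76 in clone 2 and 7.90 in clone 1, while the other 3 Chd1 probe sets nearly overlap.

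Most of the 9 genes differed little between the clones, and a few were brighter in clone 2. Taking each gene by its brightest probe set, 7 of 9 were higher in clone 2, against 63.9% of all genes above background. After centring on all probe sets 7 of 9 were higher, against 77.8% of all genes. After quantile normalization 7 of 9 were so, against 48.5%, among them Rbbp4 (0.01), Mta3 (0.025) and Mta2 (0.03). After centring on probe sets above background in both clones 5 of 9 were, against 44.2%, where Mta3 and Rbbp4 turned. The median difference of the 9 genes was 0.14, against 0.09 over all genes. Chd1 and Mta1 passed 1.5-fold, both higher in clone 2, Chd1 by 1 probe set of 4. That is 2 of 9 genes where 4.42% of all genes passed in either direction and 3.92% passed upwards in clone 2. The rule was set with the earlier value of Chd1 known, so this count is no independent evidence. In all, 376 of the 424 genes past 1.5-fold were higher in clone 2, and 205 of 319 were so after quantile normalization. Gatad2b, at 0.58 or 1.49-fold, lay just outside the rule (0.67, past it, after centring on all probe sets), and Mta1, at 0.71 or 1.64-fold, just inside it. None of the 9 genes passed 2-fold (0 of 9, against 0.438% of all genes). Among the 21 probe sets above background in both clones 14 were higher in clone 2, against 62% of all such probe sets, and 7 were lower. Of the 22 above background in 1 clone or both 3 passed 1.5-fold, 1 each of Chd1, Mta1 and Gatad2a, against 5.5% of all probe sets.

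**Figure D2:**
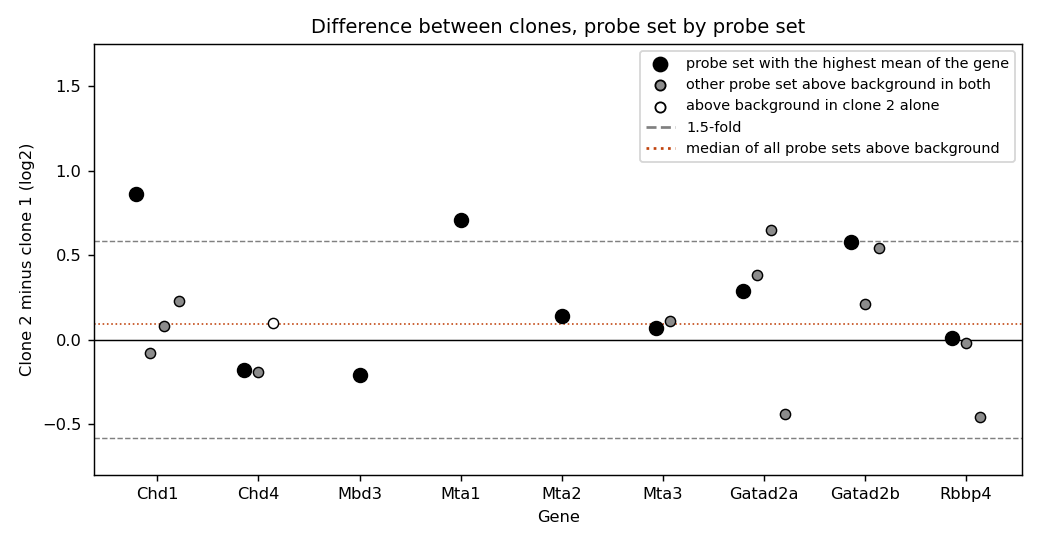
Difference between the clones (clone 2 minus clone 1, log2, y axis) for the 22 probe sets above background in 1 clone or both, by gene (x axis); large black points are the probe set with the highest mean of a gene, grey points the others, and the open point the Chd4 probe set above background in clone 2 alone. Dashed lines mark 1.5-fold and the dotted line the median of all probe sets above background, 0.09; 1 of 4 Chd1 points and the single Mta1 point lie above the upper dashed line.

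Chd1 was read by 4 probe sets, all above background in both clones, which did not give 1 answer. Probe set 1457473_at read 8.76 in clone 2 against 7.90 in clone 1 (mean 8.33 ± 0.61, SD, n = 2), which is 0.86 or 1.82-fold higher. Probe set 1420990_at read 8.03 in clone 2 and 8.11 in clone 1, or -0.08. The clones were thus apart by the first and level by the second. In clone 1 alone 1420990_at was the brighter, 8.11 against 7.90. Probe set 1457473_at therefore stood for the gene only through its value in clone 2. Probe set 1431166_at read 7.40 in clone 2 and 7.32 in clone 1, and 1450077_at read 7.36 and 7.13, differences of 0.08 and 0.23. The call of Chd1 past 1.5-fold therefore rests on 1 probe set of 4: without it the brightest gives -0.08, and the mean over all 4 gives 0.27. In the same band of mean signal, 8.30 to 9.575, 39 of 3899 probe sets (1.00%) differed by at least as much as 1457473_at. In the band of 1420990_at, 7.26 to 8.295, 79.8% of the 3904 differed by at least as much as it did. The 4 differences spanned 0.94, against a median span of 0.44 over the 257 genes with 4 probe sets above background in both clones, of which 20 (7.78%) spanned at least as much. A single probe set out of 4 past 1.5-fold was found in 43 of those 257 genes (16.7%). The sources used here do not say which part of the Chd1 transcript each probe set covers.

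Chd4, the motor of NuRD, was slightly dimmer in clone 2 by both probe sets above background in both clones. Probe set 1451295_a_at read 8.84 in clone 2 against 9.02 in clone 1 (mean 8.93 ± 0.13, SD, n = 2), and 1436343_at read 7.15 and 7.34. Their differences, -0.18 and -0.19, were the closest pair of the members with several probe sets. In either direction 49.0% and 56.6% of probe sets of the same signal differed by at least as much, around medians of 0.10 and 0.12. The third, 1438476_a_at, read 6.74 in clone 2 and 6.64 in clone 1 and was above background in clone 2 alone, where the level was lower. Mbd3, the bridging subunit, had 1 probe set, at 9.29 in clone 2 and 9.50 in clone 1 (9.40 ± 0.15, SD, n = 2). Its difference of -0.21 was met or passed, in either direction, by 42.1% of probe sets of the same signal, whose median difference was 0.10. Of all genes above background 34.5% were lower in clone 2. Chd4 and Mbd3 were the 2 genes lower in clone 2, and both stayed below 0 under the 3 other normalizations, at -0.09 to -0.30 for Chd4 and -0.12 to -0.33 for Mbd3. Neither came near 1.5-fold.

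The 3 Mta scaffold genes differed from each other in how far the clones were apart. Mta1 read 8.64 in clone 2 and 7.93 in clone 1 by 1417295_at (mean 8.29 ± 0.50, SD, n = 2), 0.71 apart. In its band of signal 114 of 3904 probe sets (2.92%) differed by at least as much. Its other probe set, 1440113_at, was not above background (4.63 in clone 2 and 4.56 in clone 1), so the difference of Mta1 rests on 1 probe set, and after quantile normalization it was 0.575, short of 1.5-fold. Mta2 had 1 probe set, at 9.20 in clone 2 and 9.06 in clone 1 (9.13 ± 0.10, SD, n = 2), and 58.9% of probe sets of the same signal differed by at least as much as its 0.14. Mta3 read 10.84 in clone 2 and 10.77 in clone 1 by 1451352_s_at and 7.86 and 7.75 by 1421402_at, differences of 0.07 and 0.11. The clones were level by both. Without probe sets ending in _s_at or _x_at the mean signal of Mta3 was 7.805, against 10.805. The remaining Mta3 probe set, 1443350_at, read 4.93 and 5.69, under background in both clones, so its gap of -0.76 has no order.

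Gatad2a and Gatad2b, the alternative linker subunits, were both brighter in clone 2 by most of their probe sets. Gatad2b was higher in clone 2 by all 3 probe sets above background in both clones. It read 8.42 in clone 2 and 7.84 in clone 1 by 1425075_at (mean 8.13 ± 0.41, SD, n = 2). The values were 8.08 and 7.54 by 1437474_at and 7.95 and 7.74 by 1437507_at. The 3 differences, 0.58, 0.54 and 0.21, all lay above the median of all genes, and 6.97%, 8.84% and 49.0% of probe sets of the same signal differed by at least as much. The remaining probe sets of Gatad2b, 1432979_at and 1447026_at, were not above background. For Gatad2a the brightest probe set, 1423992_at, read 11.62 in clone 2 and 11.33 in clone 1 (11.48 ± 0.21, SD, n = 2), and 1451197_s_at read 11.27 and 10.89. Their differences of 0.29 and 0.38 were met or passed by 17.5% and 9.20% of probe sets in the brightest band, of mean signal 9.58 to 14.20. There the spread between arrays was smallest (SD 0.220). Nearer to background 1455505_at read 7.55 in clone 2 against 6.90 in clone 1, or 0.65 higher, whereas 1445239_at read 6.70 and 7.14, or -0.44. Gatad2a thus gave both directions, and its span of 1.09 was matched or passed in 9 of the 257 genes with 4 such probe sets (3.50%). The fifth probe set, 1451198_at, read 6.25 in clone 2 and 5.76 in clone 1, under background in both.

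Rbbp4, a histone-binding subunit that NuRD shares with other complexes, was level between the clones by 1434892_x_at and 1454791_a_at but not by 1454875_a_at. It read 12.83 in clone 2 and 12.82 in clone 1 by 1434892_x_at, whose suffix in Affymetrix naming marks probes that may bind other transcripts, and 10.83 and 10.85 by 1454791_a_at. In contrast 1454875_a_at, about as bright as 1454791_a_at (means 10.82 and 10.84), read 10.59 in clone 2 against 11.05 in clone 1, or -0.46. In the brightest band, of mean signal 9.58 to 14.20, 194 of 3911 probe sets (4.96%) differed by at least as much in either direction. Their median difference was 0.04. The fourth, 1456260_at, read 6.13 and 6.36, not above background. The sign of Rbbp4 depended on the processing, at -0.16 to 0.10 under the alternatives, as did that of Mta3, at -0.05 to 0.16.

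**Figure D3:**
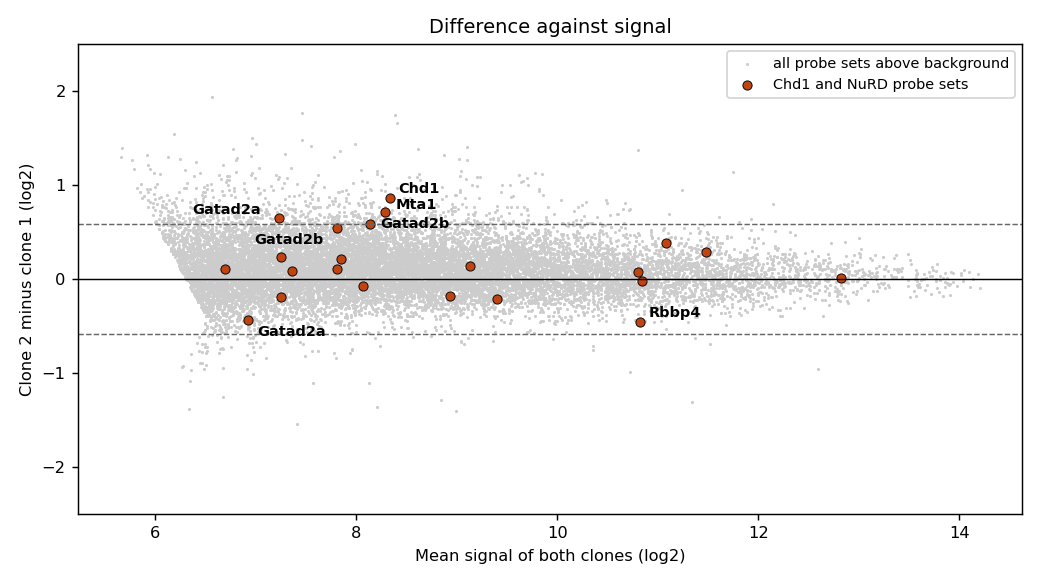
Difference between the clones (clone 2 minus clone 1, log2, y axis) against the mean signal of both (log2, x axis) for all 15618 probe sets above background in 1 clone or both, in grey, and for the 22 of Chd1 and the NuRD genes, in red; dashed lines mark 1.5-fold. The grey cloud narrows with signal, with an SD of 0.331 in the dimmest of 4 bands and 0.220 in the brightest, and the named points are those with a difference of 0.4 or more in either direction.

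Subunits of NuRD outside the 9 genes were close to level where both clones were above background. Of 7 measured, 5 passed background in both clones (Hdac1, Hdac2, Mbd2, Rbbp7 and Cdk2ap1), against 47.4% of all genes. Chd3 passed in clone 2 alone. Hdac1, a catalytic deacetylase, read 11.58 in clone 2 and 11.72 in clone 1. Rbbp7, the close relative of Rbbp4, read 12.84 in both clones, and Cdk2ap1, a small subunit, 11.94 in clone 2 and 11.98 in clone 1. Chd3, an alternative motor, read 6.77 in clone 2 and 6.04 in clone 1; with clone 1 set to its background level, Chd3 was at least 1.03-fold higher in clone 2. The 6 genes above background had a median difference of 0.03, which was below 0 after quantile normalization (-0.04) or centring on probe sets above background in both clones (-0.10).

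Other Chd genes were close to level, and 0 of 6 above background in 1 clone or both passed 1.5-fold, against 4.42% of all genes. Chd9 read 8.92 in clone 2 and 8.59 in clone 1, Chd6 7.17 and 6.95, Chd1l 9.19 and 9.03, and Chd2, the closest relative of Chd1, 9.01 and 9.08. Their median was 0.17, and it was above 0 under the 3 other normalizations, at 0.04 to 0.26. Of 9 measured elongation factors that act on the same transcribed chromatin as Chd1, 9 passed background in both clones, against 47.4% of all genes. Among these 9 genes 4 were higher and 5 lower in clone 2, where 63.9% of all genes above background were higher. None of the 9 passed 1.5-fold, against 4.42% of all genes. Rtf1, a Paf1 complex subunit that recruits Chd1 in yeast, read 9.23 in clone 2 and 8.83 in clone 1, and the histone chaperone Supt6 8.21 and 7.83. Supt16, of the chaperone FACT, read 11.59 and 11.60, and Wdr61, another Paf1 complex subunit, 11.45 in clone 2 and 11.81 in clone 1. The median of these 9 was -0.01, and it was -0.13 to 0.08 under the 3 other normalizations.

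Of 14 measured factors known to recruit or partner NuRD 8 passed background in both clones, against 47.4% of all genes. Zfpm1 passed in clone 2 alone. In clone 2, 7 of the 9 genes that passed in 1 clone or both were higher, with a median of 0.24. Of all genes above background 63.9% were higher. After centring on all probe sets 8 were higher, against 77.8% of all genes, and after quantile normalization 7, against 48.5%. After centring on probe sets above background in both clones 7 were, against 44.2%. The medians under these 3 other normalizations were 0.12 to 0.33. Sall4, a zinc finger factor of pluripotent cells that binds NuRD, read 11.55 in clone 2 and 11.29 in clone 1, and the histone demethylase Kdm1a 12.49 and 12.26. Bcl11a, a zinc finger repressor, read 6.80 in clone 2 and 7.25 in clone 1. Zmynd8, a chromatin reader, was the 1 gene of 9 past 1.5-fold, against 4.42% of all genes. It read 9.09 in clone 2 against 8.39 in clone 1 (0.70). After quantile normalization and after centring on probe sets above background in both clones it fell short of 1.5-fold, at 0.58. As with Chd1, its other probe sets above background did not share this, at 8.67 and 8.55 (0.12) and at 7.18 and 7.24 (-0.06).

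Of the pluripotency genes that NuRD is known to restrain in ES cells 4 of 4 were higher in clone 2. Over all genes above background the share was 63.9%. After centring on probe sets above background in both clones Zfp42 was lower (-0.04). Klf5 is one of the 4 and is the overexpressed gene. Its difference was 0.64 as deposited, 0.62 after quantile normalization and 0.73 after centring on all probe sets, each past 1.5-fold. After centring on probe sets above background in both clones it was 0.52, short of 1.5-fold. By its brightest probe set Klf4 was past 1.5-fold only after centring on all probe sets (0.60). The list was written with the values of Klf4, Klf5 and Zfp42 known, so its direction is no independent evidence. Klf4 read 11.67 in clone 2 and 11.16 in clone 1, and 10.41 and 9.29 by its other probe set. Tbx3, a T-box transcription factor, differed by 0.45, and Zfp42 read 12.77 in clone 2 and 12.69 in clone 1. Their median was 0.48, and 0.36 to 0.57 under the 3 other normalizations.

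Among 89 chromatin and partner genes of these lists above background, the 3 whose difference lay nearest to the 0.86 of Chd1 were Zmynd8 (0.70), Klf5 (0.64) and Chd3, whose 0.73 has no exact place among them because clone 1 was below background. The measure is the gap between differences over 2 arrays, and for Chd1 it rests on probe set 1457473_at alone. Only the probe set with the highest mean signal was used per gene. The less bright Klf4 probe set, with a difference of 1.12 (10.41 in clone 2 and 9.29 in clone 1), was thus left out. Among the 89 genes read in this way no difference was above 0.73, so the 3 genes are those with the largest positive differences. The order shows no likeness to Chd1 beyond that.

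Subunits of the BAF remodelling complex and genes of the repressive Polycomb complexes were read in the same way. Of 15 measured BAF subunits 14 passed background in both clones, against 47.4% of all genes, and the other in a single clone. Their median was 0.14. Of 12 measured Polycomb genes 12 passed in both clones, with a median of 0.10. By its brightest probe set no gene of either list passed 1.5-fold on the deposited scale (0 of 15 and 0 of 12). After centring on all probe sets 2 of 15 and 1 of 12 did. Over all genes above background 690 passed after that centring, against 424 (4.42%) as deposited. After centring on probe sets above background in both clones the medians were 0.02 for BAF and -0.02 for Polycomb, where Polycomb had 6 genes higher and 6 lower in clone 2. The largest BAF differences were those of Arid1b, 7.60 in clone 2 and 7.08 in clone 1, and Bcl7c, 8.58 and 8.08. Bright BAF subunits were Actl6a, at 11.23 and 10.93, and Ss18, at 10.95 and 10.99. In the Polycomb list Epop read 10.25 in clone 2 and 9.74 in clone 1, Pcgf6 10.22 and 9.96, Mtf2 12.57 and 12.61, and Jarid2 12.24 and 12.39. Less bright probe sets of Pcgf6 (9.10 and 8.42, 0.68) and Mtf2 (10.72 and 10.12, 0.60) were past 1.5-fold. The remaining Mtf2 probe sets gave 0.29 and -0.22. Whether the lists differ from each other was not tested.

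**Figure D4:**
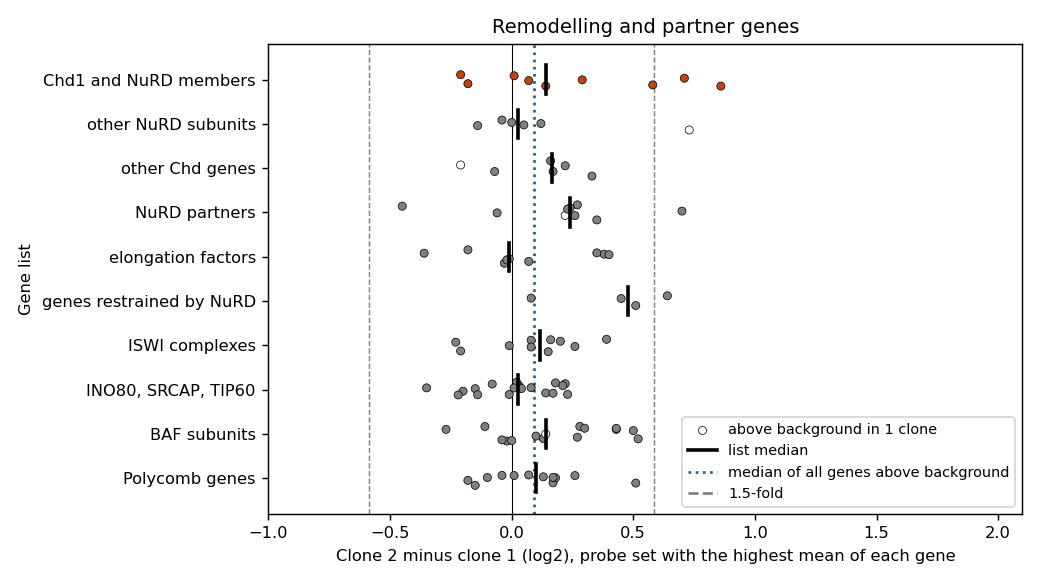
Difference between the clones (clone 2 minus clone 1, log2, x axis) of each gene above background in 1 clone or both, by its brightest probe set, for the 9 genes (red) and 9 other lists (grey), 1 row per list; thick bars are list medians, dashed lines 1.5-fold and the dotted line the median of all genes, 0.09. Open points are genes above background in a single clone, whose distance from 0 is not measured on both sides, Chd3 among them; the filled points past the upper dashed line are Chd1, Mta1, Zmynd8 and Klf5.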

How the data were processed

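Gene expression was measured in 1 group, 2 Klf5-overexpressing ES cell clones with 1 array each; the clone numbers of the sample titles served as replicate numbers. For every probe set and array the authors deposited a log2 signal; the submitters' processing notes name Transcriptome Analysis Console. The sources used here do not state the background correction, the summarisation, the normalization or the log base; base 2 was taken from the range of values, 2.21 to 14.38. Values were used as deposited.

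Of 45037 probe sets 34945 had 1 gene symbol in the platform annotation, 932 several (none with one of the 9 genes) and 9160 are unnamed here. Entrez identifiers of 34741 matched the RefSeq table of GRCm38.p6, with 0 symbols changed. A gene was represented by its probe set with the highest mean of both arrays. Of 56 listed background genes 51 were measured. Shares among probe sets of the same signal used 4 bands of about equal size. Their mean signals ran from 5.66 to 7.255, 7.26 to 8.295, 8.30 to 9.575 and 9.58 to 14.20. Differences counted in either direction from 0, so the share of a negative difference includes positive ones. All probe sets of the 9 genes were named. Per other list the 2 genes with the largest absolute difference and the 2 with the highest signal were named. Tbx3, Mylpf and the further probe sets of Klf4, Klf5, Zmynd8, Pcgf6 and Mtf2 were named after their values were seen, as were the markers. The members, the lists and the 1.5-fold rule were chosen with earlier results of these data known, the rule with the value of Chd1 known. With 2 arrays the precision is limited by their number, and the spread between the clones, which may be technical, is the only error. The labels name no batch. The size rule was tested on simulated data. Alternatives were 3 normalizations, other background levels, the mean over probe sets, probe sets without the _s_at or _x_at ending, each clone alone and, added after the data were seen, Chd1 without probe set 1457473_at. Python 3.11.15, pandas 2.3.3 and numpy 2.4.6 were used.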

Additional observations from a re-analysis of the deposited data

How the results depend on the processing

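All 9 genes were above background in both clones under every alternative except the 99th percentile, which left 6 genes and lowered the probe sets above background in both clones to 10, against 21. The median difference of the 9 genes, 0.14 as deposited, was 0.23 after centring on all probe sets, 0.03 after quantile normalization and 0.02 after centring on probe sets above background in both clones. The count past 1.5-fold, 2 as deposited, was 3 after centring on all probe sets (with Gatad2b), 1 after quantile normalization (Chd1), 1 when the probe sets of a gene were averaged (Mta1) and 1 without Chd1 probe set 1457473_at (Mta1), an omission chosen after the data were seen that turned the difference of Chd1 to -0.08. No gene of the 9 passed 2-fold under any of the alternatives run. Over all genes 690 passed 1.5-fold after centring on all probe sets, against 424 as deposited. No paired analysis was possible because the samples form 1 group. The values hold no probe-level intensities, so background rests on the adult-tissue genes alone.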

Other observations

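The remaining remodelling families were also expressed and close to level between the clones. Of 11 measured genes of the ISWI complexes, which space nucleosomes, 10 were above background in both clones, against 47.4% of all genes. Of these 10 genes 7 were higher in clone 2, against 63.9% of all genes above background, with a median of 0.12. None of the 10 passed 1.5-fold, against 4.42% of all genes. The motor Smarca5 read 12.28 in clone 2 and 12.20 in clone 1. Baz2a, a partner of that motor in the nucleolus, read 10.22 and 9.83, and Baz1a 8.69 and 8.43. The median of this list was near 0 after quantile normalization (0.02) and after centring on probe sets above background in both clones.

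Of 19 measured genes of the INO80, SRCAP and TIP60 complexes 18 were above background in both clones, against 47.4% of all genes. Of these 18 genes 11 were higher in clone 2, against 63.9% of all genes above background. Their median of 0.03 was below 0 after quantile normalization (-0.06) and after centring on probe sets above background in both clones (-0.10). None of the 18 passed 1.5-fold, against 4.42% of all genes. The shared ATPase Ruvbl2 read 12.31 in clone 2 and 12.51 in clone 1, Yy1, a zinc finger subunit of INO80, 11.58 and 11.54, the scaffold Trrap 7.50 and 7.27, and the INO80 subunit Actr5 7.95 and 8.30.

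Probe sets of 1 gene were further apart for Gatad2a and Chd1 than for the other members with several: Rbbp4 spanned 0.47 and Gatad2b 0.37 over 3 probe sets, against a median span of 0.33 over 746 such genes, and Mta3 0.04 and Chd4 0.01 over 2, against 0.21 over 2157.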
